A study of Homo sapiens with 9 samples.

Results

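The cells described here are the control line of a study of methylglyoxal (MG) stress, the 3 RNA libraries of MDA-MB-231 cells carrying a non-targeting short hairpin RNA (shNT), taken alone from the 9 libraries of the series. MDA-MB-231 is an established human breast cancer cell line of the triple-negative kind, that is, without the estrogen receptor, the progesterone receptor or amplified HER2. The other 6 libraries came from 2 lines of the same cells in which GLO1, the enzyme that detoxifies MG, was stably silenced by shRNA (shGLO1#1 and shGLO1#2, 3 libraries each), and they entered only the scaling of library sizes and the check of the libraries. The shNT cells were 1 control clone, so the 3 replicates show the spread within that clone and not between clones or between breast cancer lines. According to the study's methods the line was grown in DMEM with fetal bovine serum and L-glutamine. No treatment was compared here. The levels below are a description of the untreated control, and no test was run.

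Breast epithelium holds luminal cells, which make the keratins KRT8 and KRT18 and answer to estrogen, and basal cells, which make KRT5 and KRT14 and contract. Breast cancer cells can lose the traits of both layers and gain those of mesenchymal cells, the epithelial to mesenchymal transition (EMT), in which the repressors ZEB1, SNAI1, SNAI2 and TWIST1 shut down E-cadherin and vimentin filaments appear. Many such lines live from growth factor receptors instead of hormones, take up much glucose and release lactate, and remodel the matrix around them.

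The upstream sequences of 4 marker genes are printed because the number of CG dinucleotides before a gene start differed between the genes with and without mRNA here. Each run holds the 150 bases before the 5′-most RefSeq gene start on GRCh38.p14, 5′ to 3′ on the strand of the gene, with CG dinucleotides in capitals. VIM, CD44 and EGFR were expressed, and KRT5 had no count.
VIM at chr10:17228091-17228240, plus strand: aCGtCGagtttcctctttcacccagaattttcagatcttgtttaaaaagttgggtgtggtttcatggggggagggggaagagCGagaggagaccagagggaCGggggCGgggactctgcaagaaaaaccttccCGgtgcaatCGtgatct
CD44 at chr11:35139021-35139170, plus strand: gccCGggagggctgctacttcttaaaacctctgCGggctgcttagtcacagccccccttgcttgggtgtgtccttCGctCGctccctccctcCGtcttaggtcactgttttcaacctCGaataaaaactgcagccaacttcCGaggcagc
EGFR at chr7:55018867-55019016, plus strand: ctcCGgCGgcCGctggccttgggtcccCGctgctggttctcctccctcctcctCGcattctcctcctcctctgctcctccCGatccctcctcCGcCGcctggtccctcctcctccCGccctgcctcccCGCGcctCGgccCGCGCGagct
KRT5 at chr12:52520395-52520544, minus strand: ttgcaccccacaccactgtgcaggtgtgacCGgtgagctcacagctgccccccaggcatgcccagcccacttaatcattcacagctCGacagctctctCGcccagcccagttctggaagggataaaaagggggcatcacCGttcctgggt
The CG letters were counted over the full window of 300 bases, from 250 before to 50 after the start. They numbered 33 for EGFR, 18 for CD44, 10 for VIM and 7 for KRT5. Over all 27284 genes of the RefSeq table the median was 13. The 9205 matched genes with at least 1 CPM in all 3 shNT libraries had a median of 26 CG pairs (quartiles 19 and 34), and the 3914 matched genes without any count had a median of 5 (quartiles 2 and 16). The letters TATAAA, searched on both strands, lay in 5.32% of the windows of expressed genes and in 18.7% of those without a count, against 12.0% of all windows. These are descriptions of letters. Many genes have further starts that the 5′-most one leaves out.

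Levels are given in CPM, the counts of a gene scaled to a library of common size (counts per 1000000), as the value in replicates 1, 2 and 3 or as mean ± SD (n = 3). A gene was taken as expressed where it reached 1 CPM in all 3 libraries. The libraries held 15314238, 15555962 and 18495576 counts on genes. Of 26364 genes listed, 12207 (46.3%) were expressed, 8470 (32.1%) had no count in any shNT library, and 5687 had counts but were under 1 CPM in at least 1 library. No count in the 3 libraries allowed a level of up to 0.0621 CPM, which is 3 counts over the group and covers counting error only. The scale was wide. Of the expressed genes, 2725 averaged under 10 CPM, 6984 lay between 10 and 100 CPM, 2418 between 100 and 1000 CPM, and 80 above. Between 1000 and 1026 genes took 50% of the counts of a library, and the 10 most counted genes took 5.05 to 5.41%.

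The replicates resembled each other closely. Pearson correlations of log CPM between shNT libraries were 0.995 to 0.996, against 0.969 to 0.981 between an shNT and an shGLO1 library, over 13704 genes and as a description. The biological coefficient of variation estimated by edgeR from the shNT libraries was 7.37%, against 5.36% in shGLO1#1 and 8.24% in shGLO1#2. No 2 libraries were identical, and within shNT they differed by more than counting noise (their chi-square divided by its degrees of freedom was 4.66 to 7.55). The gene GLO1 itself, which the control hairpin leaves alone, had 323, 312 and 317 CPM.

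The 30 genes with the highest CPM were mostly parts of the translation machinery, the cytoskeleton, the chaperones and glycolysis. EEF1A1, an elongation factor of translation, had 15892, 14978 and 15772 CPM. Behind it stood GAPDH at 5983 ± 371 CPM, the actins ACTB (5429.9 ± 316) and ACTG1 (5043 ± 580.3), the actin cross-linker FLNA (4012 ± 434), the enolase ENO1 (3965 ± 208), the tubulin TUBB (3924 ± 55.7) and the intermediate filament VIM (3328 ± 282). The chaperones HSP90AB1, HSP90AA1 and HSPA8 had 3055, 2567 and 2564 CPM. ANKRD1, a nuclear protein known as a target of the YAP co-activator, stood at rank 15 with 2436, 2193 and 2404 CPM. HMGA1, an architectural chromatin protein that is abundant in embryonic and tumour cells, had 1901 ± 169 CPM. Annexins ANXA2 (1869.6 ± 17.3) and ANXA5 (1666 ± 54.8) and the calcium-binding S100A6 (1659 ± 139.6) were also among the 30, as were the desaturase SCD (2203 ± 92.9) and the integrin chain ITGB1 (1887 ± 134). Others among the 30 were PKM, AHNAK, DYNC1H1, RPLP0, LDHA, TUBA1B, CANX, YWHAZ, EEF2, PSAP and MYH9, with means from 1657 to 2832 CPM.

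A long mRNA gives more reads than a short one, so genes are compared by level per kilobase of merged exon, and values in CPM set side by side do not rank them. AHNAK and DYNC1H1, which encode very large proteins, stood at ranks 11 and 14 by CPM and at 363 and 415 per kilobase. VIM kept a place near the top, with rank 8 by CPM and 9 per kilobase. S100A6 moved the other way, with rank 29 by CPM and 7 per kilobase. Below, a gene is said to stand above another only where its lowest per-kilobase value of the 3 libraries exceeded the highest of the other gene.

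The 4 markers given for the line were all expressed. VIM, the filament protein of mesenchymal cells, had 3577, 3386 and 3022 CPM. CD44, the hyaluronan receptor, had 394, 437 and 445 CPM. EGFR, the receptor for epidermal growth factor, had 220.5, 260.2 and 269 CPM. ZEB1, a zinc finger repressor of epithelial genes, had 73.5, 76.8 and 73.0 CPM. VIM was highest in replicate 1 and lowest in replicate 3, CD44 and EGFR ran the other way, and ZEB1 varied by 2.06 CPM (SD). Per kilobase of exon the order was VIM (1782 ± 151), CD44 (69.7 ± 4.45), EGFR (22.1 ± 2.29) and ZEB1 (11.6 ± 0.321), each above the next in all 3 libraries.

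The receptors that define breast cancer subtypes were absent or low apart from HER2. PGR, the progesterone receptor, had no count in any shNT library. ESR1, the estrogen receptor alpha, had 3, 0 and 1 counts, or 0.0856 CPM. ESR2, the estrogen receptor beta, reached 3.56, 3.13 and 3.04 CPM. ERBB2, which encodes HER2, had 86.2, 82.2 and 71.0 CPM, in all libraries below EGFR per kilobase (14.1 ± 1.39 against 22.1 ± 2.29 for EGFR). The copy number of the HER2 gene was not measured.

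**Figure D1:**
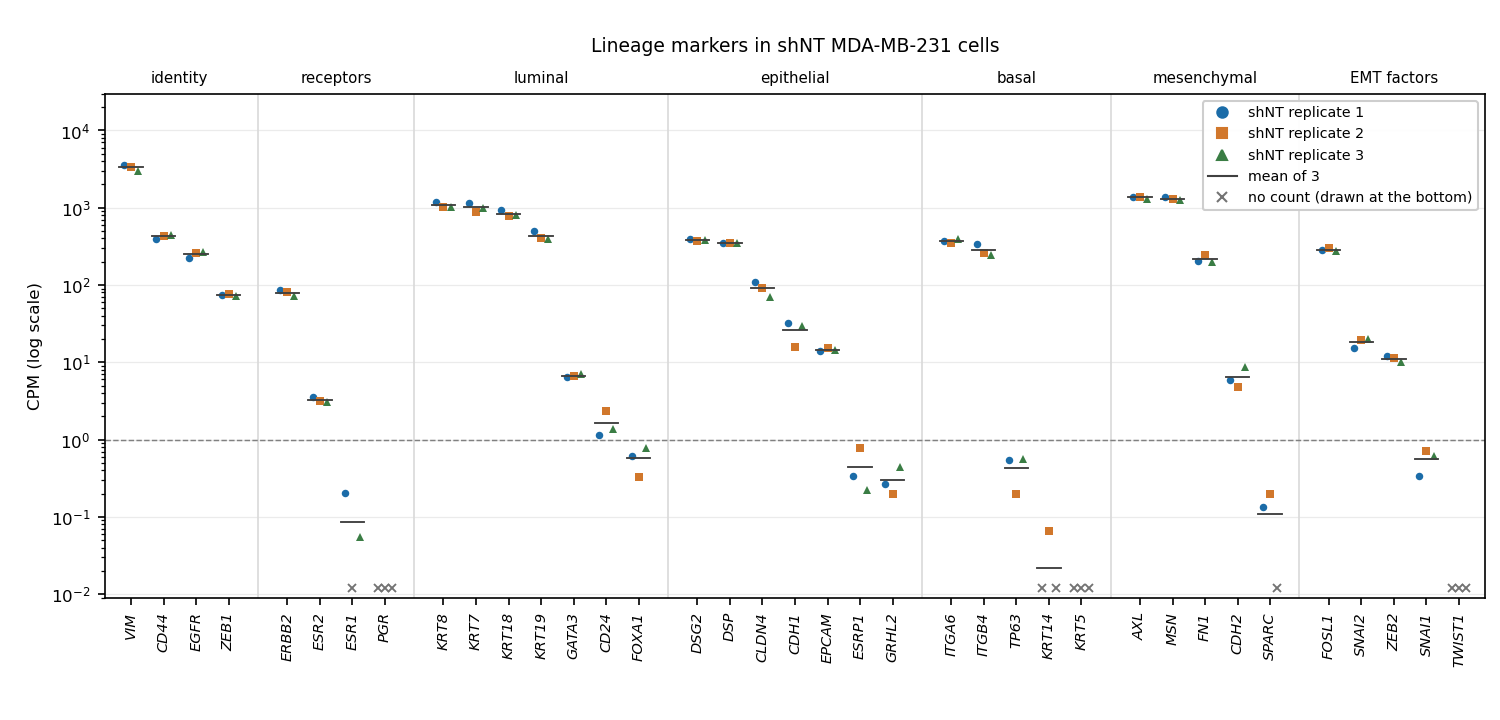
CPM on a log axis of lineage markers in the 3 shNT libraries, 1 symbol per replicate, with bars at the mean and crosses at the bottom for libraries without a count. The dashed line marks 1 CPM. The 4 simple keratins, DSG2 and DSP sit between 346 and 1193 CPM beside VIM at 3022 to 3577, while PGR, KRT5 and TWIST1 have no count.

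In the luminal list 13 of 18 members were expressed (72.2%, against 46.3% of all genes listed). The simple keratins of luminal cells were abundant. KRT8 had 1193, 1010.1 and 1015 CPM, KRT7 1150.3, 887 and 998, KRT18 921, 772 and 815 and KRT19 501, 408 and 389.7. All 4 had their highest value in replicate 1. The transcription factors of the list ranged from no count for ELF5 to 68.4 CPM for XBP1. GATA3 had 6.73 ± 0.230 CPM and SPDEF 57.3 ± 11.9, FOXA1 had 9, 5 and 14 counts (0.568 CPM), and ELF5, the factor of alveolar cells, had none. XBP1, a factor of the secretory pathway, had 68.4 ± 2.38 CPM and ELF3, of epithelial cells, 10.5 ± 3.27. AGR2, a luminal secretory protein, reached 79.7, 66.5 and 92.8 CPM while its neighbour AGR3 had no count. CD24, a surface protein of luminal cells, had 1.14, 2.35 and 1.38 CPM. Among all 55 genes with a keratin symbol, 8 were expressed (14.5%, against 46.3% of all genes listed). No count was seen for 36, and for 32.1% of all genes listed. All 55 together made up 0.331 to 0.402% of the gene counts.

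In the list of epithelial junctions and regulators 22 of 30 members were expressed (73.3%, against 46.3% of all genes listed). A mean of at least 10 CPM was reached by 16 members. Desmosome genes led. DSG2, a desmosomal cadherin, had 388, 369 and 383 CPM, and DSP, which links desmosomes to keratin, had 346, 349.9 and 347. PKP2, another plaque protein, had 139 ± 10.2 CPM. The tight junction scaffold TJP1 had 146 ± 3.11 CPM, and the claudin CLDN4 had 109, 91.9 and 70.2. CDH1, which encodes E-cadherin, was low and uneven, with 32.6, 15.8 and 29.9 CPM in the 3 libraries. EPCAM, an epithelial adhesion molecule, had 14.0, 15.4 and 14.3 CPM. The regulators of the epithelial state split. ESRP2, a splicing factor of epithelial cells, was expressed at 31.3 ± 3.93 CPM, whereas its relative ESRP1 had 5, 12 and 4 counts (0.446 CPM). GRHL2, a transcription factor that maintains E-cadherin, had 4, 3 and 8 counts, OVOL2 had 0, 1 and 0 and OVOL1 had none. CLDN3 stood at 0.247 CPM beside CLDN7 at 29.8 ± 7.87. CTNND1, which encodes the cadherin partner p120, was listed at 3.86 ± 0.0813 CPM. Its locus is also covered by the read-through model TMX2-CTNND1, which had no count, and counts of overlapping gene models are uncertain.

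Most basal keratins were at or near 0, apart from KRT15 at 3.29, 2.67 and 3.38 CPM, while genes of hemidesmosomes, the basal anchor to the matrix, were expressed. Of 23 basal members, 9 were expressed, a share (39.1%) below that of all genes listed. KRT5, KRT6A, KRT6B, SOX10 and EN1 had no count, and KRT14 had 0, 1 and 0. TP63, the master factor of basal cells, had 8, 3 and 10 counts (0.429 CPM). ITGA6 and ITGB4, the 2 chains of the hemidesmosome integrin, had 376, 354 and 393 CPM for ITGA6 and 337, 262 and 248 CPM for ITGB4. LAMB3, a chain of laminin-332, had 233 ± 17.9 CPM. ACTA2 and CNN1, contractile proteins of myoepithelial cells, had 1.74 and 0.0441 CPM. MYLK, a kinase of myosin, had 89.6 ± 6.99.

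Mesenchymal effectors were the most complete of the lineage lists, with 19 of 21 members expressed (90.5%, against 46.3% of all genes listed). A mean of 100 CPM or more was reached by 13 members, and by 2498 of all 26364 genes listed. MSN, which links actin to the membrane, had 1388, 1279.8 and 1276 CPM, and CAV1, the coat protein of caveolae, had 674, 668 and 731. NT5E, the surface nucleotidase CD73, had 426, 419 and 463 CPM. S100A4, a small calcium-binding protein of motile cells, had 258, 196 and 263. CDH11, a mesenchymal cadherin, reached 219.8, 215 and 266 CPM, whereas CDH2, the N-cadherin of many EMT accounts, had 5.91, 4.82 and 8.69. FN1, fibronectin, had 205, 243 and 196 CPM. SPARC, a matrix protein that mesenchymal cells commonly secrete, had 2, 3 and 0 counts (0.110 CPM), and TAGLN had 4.37 CPM. VIM, AXL, MSN and CDH11 were thus abundant in libraries that held very little CDH2 and SPARC mRNA.

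Of 15 EMT transcription factors 6 were expressed, a share below the 46.3% of all genes listed. No count was seen for 4, and for 32.1% of all genes listed. FOSL1, the AP-1 subunit FRA-1, had 279.6, 302 and 274 CPM and stood above ZEB1 per kilobase by a ratio of 13.4 ± 0.332 (15.9 by coding length and 3.83 without a length), where the value is the mean and SD of the ratio in 3 libraries. ZEB1 stood above ZEB2, which had 11.9, 11.4 and 10.2 CPM, by a ratio of 13.9 ± 1.03 (8.09 by coding length and 6.69 without a length). SNAI2 had 15.3, 19.5 and 19.8 CPM. TCF3, which encodes the E-box binding E12 and E47 proteins, had 99.6 ± 10.2 CPM. SNAI1 had 5, 11 and 11 counts (0.554 CPM). TWIST1, TWIST2, FOXC2 and GSC had no count, which allowed up to 0.0621 CPM. The order of ZEB1 and SNAI2 per kilobase changed with the length used (1.56 per exon length, 0.984 per coding length).

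Markers used for breast cancer stem cells were mixed, with 10 of 17 expressed (58.8%, against 46.3% of all genes listed). CD44 was high and CD24 close to 1 CPM, as given above. MYC had 119.6, 122 and 115 CPM and SOX9 101, 101 and 95.2. PROCR, the protein C receptor, had 37.1 ± 4.81 CPM and KLF4 24.1 ± 1.95. ALDH1A3 reached 2.89 ± 0.642 CPM and ALDH1A1 had no count. SOX2 had 0, 0 and 1 counts, NANOG 1, 2 and 1 and PROM1 1, 1 and 0.

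Markers of other cell types were at or near zero with a few exceptions. In RNA from a whole culture, few cells of another type cannot be told apart from little RNA in every cell. Over all genes listed 46.3% were expressed and 32.1% had no count. Expressed shares were 23.1% of leukocyte, 12.5% of endothelial, 36.4% of fibroblast and pericyte and 27.3% of erythroid, liver, neural and melanocyte markers. No count was seen for 4 of 13, 3 of 8, 3 of 11 and 5 of 11 of these, and for 1 of 6 adipocyte markers. Such counts alone do not show that a cell type was absent. Of 13 leukocyte markers 3 were expressed. CD68, a lysosomal protein, had 118 ± 3.13 CPM, PTPRC (CD45) had 9.33, 6.26 and 9.52 and CSF1R 1.54 ± 0.216, while CD4, MS4A1 and NKG7 had no count. Of 8 endothelial markers KDR alone was expressed (3.09, 4.89 and 4.26 CPM), and CDH5, CLDN5 and EMCN had no count. In the list for fibroblasts and pericytes 4 of 11 were expressed, COL1A1 (14.0, 8.67 and 8.80 CPM), RGS5 (10.3 ± 0.679), LUM (4.73 ± 0.744) and PDGFRB (2.42 ± 0.844). PDGFRA, FAP and THY1 had no count there, and COL1A2, the partner chain of COL1A1, had 2, 5 and 2 counts. No adipocyte marker of 6 was expressed. Among erythroid, liver, neural and melanocyte genes MBP, GFAP and PMEL were expressed, with 158 ± 6.98, 3.43 ± 0.0982 and 2.65 ± 0.557 CPM, and HBB, HBA1, HBA2, RBFOX3 and TYR had no count. The gene of MBP also yields the Golli proteins outside the nervous system, which counts per gene cannot tell from myelin basic protein.

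Receptor tyrosine kinases bind growth factors and pass the signal on through RAS and PI3K. Of 58 genes 33 were expressed (56.9%, against 46.3% of all genes listed), 22 averaged at least 10 CPM and 10 had no count. Among all 26364 genes listed, 9482 averaged at least 10 CPM and 8470 had no count. Per kilobase AXL led. AXL, the receptor for GAS6, had 1395, 1385 and 1311 CPM, or 285, 283 and 268 per kilobase. EPHA2, a receptor of ephrin-A ligands, followed with 605, 569.7 and 534 CPM, and MET, the receptor of hepatocyte growth factor, with 568, 548 and 602. AXL stood above EPHA2 by a ratio of 1.94 ± 0.0641 per kilobase, EPHA2 above MET by a ratio of 1.68 ± 0.162, and MET above EGFR by a ratio of 3.91 ± 0.415 (2.20 by coding length and 2.31 without a length). Without a length EPHA2 and MET were equal within their spread (ratio 0.997). After them EGFR (22.1 ± 2.29 per kilobase), FGFR1 (18.9 ± 1.15) and EPHB4 (16.1 ± 2.56) overlapped as neighbours.

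The AXL family was present in full. Besides AXL the cells expressed MERTK (54.1, 52.9 and 51.8 CPM) and TYRO3 (34.4, 29.7 and 27.3 CPM), and the ligand GAS6 had 318, 276 and 286 CPM. In the EGF receptor family ERBB3, which needs a partner because its own kinase is weak, had 41.6, 28.9 and 27.3 CPM with the highest value in replicate 1, and ERBB4 had 0.732 CPM. Ephrin receptors EPHB2 and EPHA4 had 137 ± 6.91 and 14.7 ± 1.04 CPM. FGFR1 had 123 ± 7.48 CPM, whereas FGFR2, FGFR3 and FGFR4 had 0.0553, 1.12 and 2.00. IGF1R had 61.0 ± 4.69 and INSR 24.7 ± 2.33 CPM. MST1R, the receptor RON, had 53.9 ± 5.75. MUSK, known as the organizer of the neuromuscular junction, had 36.1, 26.1 and 33.8 CPM, and ROR1 had 43.5, 42.6 and 59.4. PTK7, a co-receptor in Wnt signalling, varied most, with 13.7, 34.1 and 25.1 CPM. KIT, PDGFRA, FLT3, RET, ALK, NTRK3, ROR2, EPHA3, INSRR and AATK had no count.

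Serine/threonine kinase receptors of the TGF-beta family were expressed for 10 of 14 members (71.4%, against 46.3% of all genes listed). TGFBR2, which binds the ligand, had 163, 174 and 179 CPM and TGFBR1, its signalling partner, had 88.8, 100.4 and 114. Per kilobase TGFBR2 stood above TGFBR1 by a ratio of 2.41 ± 0.193 (1.47 by coding length and 1.71 without a length). The BMP receptors BMPR2 and BMPR1A had 70.5 ± 4.96 and 45.9 ± 2.09 CPM. ENG and ACVRL1, receptors of endothelial cells, had 0, 0 and 1 counts for ENG and 1, 0 and 0 counts for ACVRL1.

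The cytokine, death and chemokine receptors were the fullest receptor list, with 30 of 37 expressed (81.1%, against 46.3% of all genes listed). IL6ST, the shared gp130 chain of the IL-6 family, had 326, 348 and 379.5 CPM. OSMR and LIFR, which pair with it, had 259.7, 246 and 264 CPM for OSMR and 60.3, 60.2 and 64.2 CPM for LIFR, whereas IL6R had 22.6, 14.8 and 19.0. Among tumour necrosis factor receptors TNFRSF21 had 319.7 ± 18.5 CPM, TNFRSF10B, a receptor of TRAIL, 171 ± 6.10, TNFRSF12A, the receptor of TWEAK, 149 ± 6.99, and TNFRSF1A 141 ± 17.7. FAS had 6.49 ± 0.363 CPM. CXCR4, the receptor of CXCL12, had 52.2, 42.6 and 45.4 CPM and its ligand CXCL12 had no count. CXCR2, NGFR and ACKR3 had no count either.

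Receptors for nutrients and proteases were expressed for 15 of 21 genes (71.4%, against 46.3% of all genes listed). TFRC, which takes up transferrin-bound iron, had 777, 874 and 950.5 CPM. F2RL1 and F2R, receptors cut by trypsin-like proteases and by thrombin, had 415, 386 and 499 CPM for F2RL1 and 117, 103 and 124 CPM for F2R. NRP1, a co-receptor of VEGF, had 418, 414 and 457 CPM, against 10.6 ± 0.468 for NRP2. NOTCH2 had 307 ± 20.8 CPM and NOTCH1 28.1 ± 6.67. AGER, the receptor for advanced glycation end products, a class of adducts that MG forms, had 5.84, 3.00 and 3.93 CPM.

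**Figure D2:**
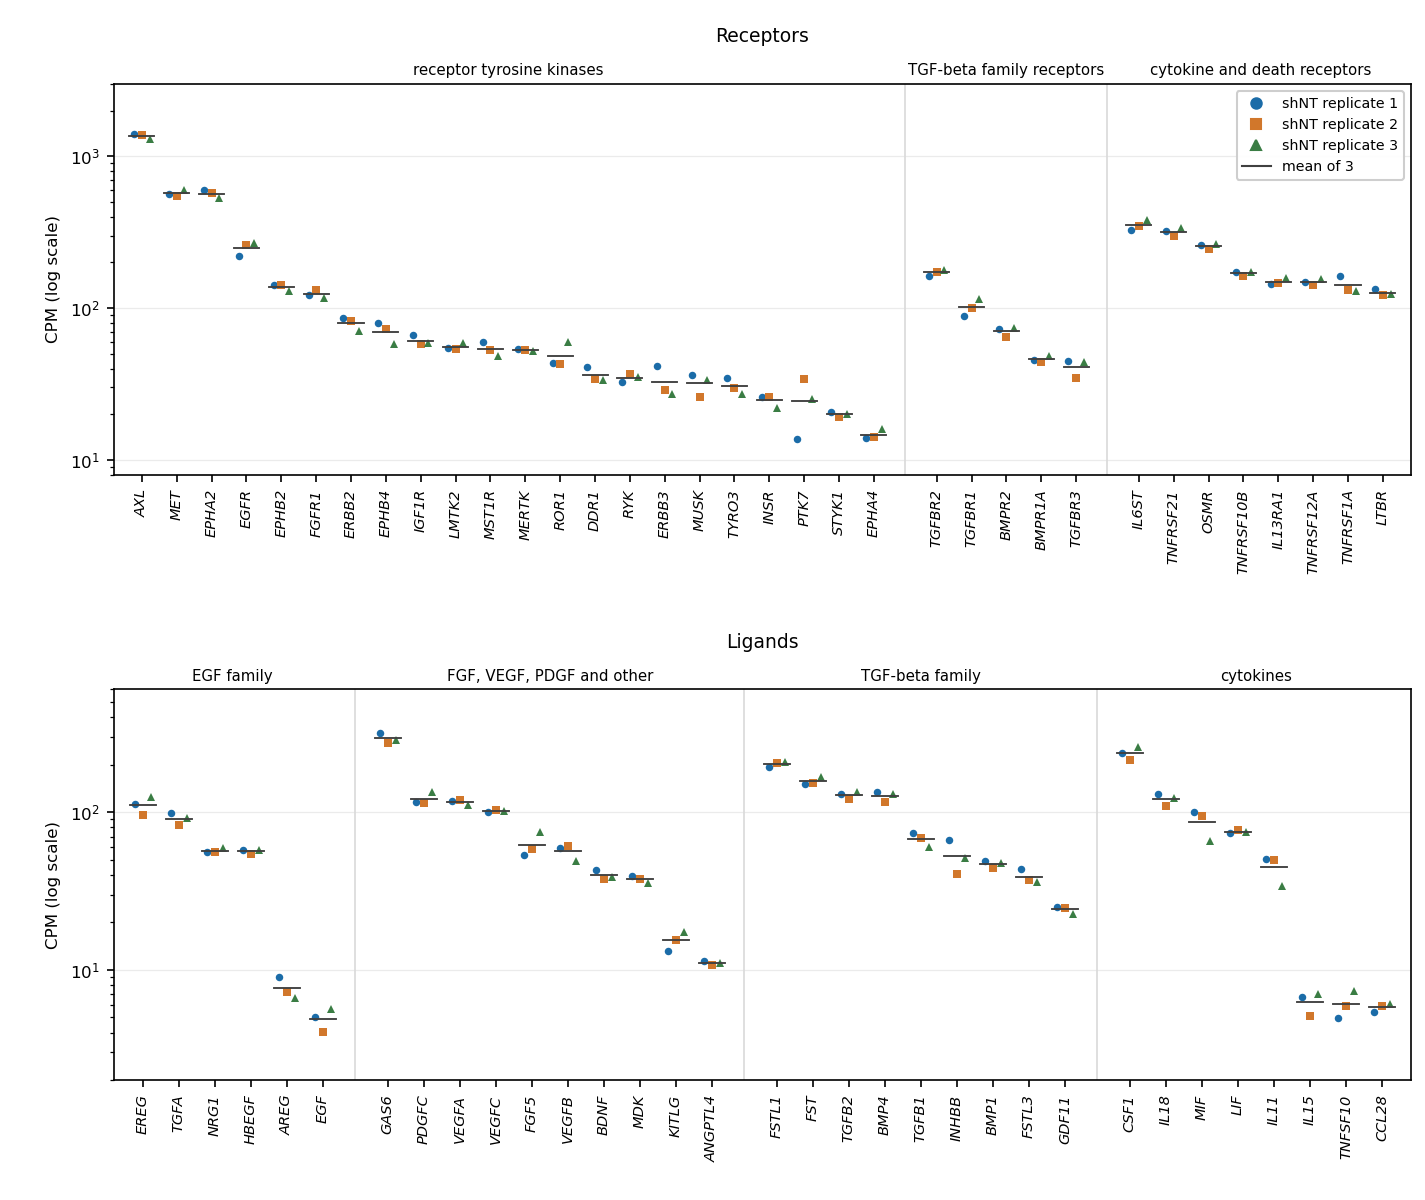
CPM on log axes of expressed receptors (upper panel) and ligands (lower panel) in the 3 shNT libraries, 1 symbol per replicate and bars at the mean. The upper panel shows the receptor tyrosine kinases with a mean of at least 10 CPM and the most counted members of 2 other receptor lists. AXL sits at 1311 to 1395 CPM, and PTK7 is spread from 13.7 to 34.1 CPM.

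Ligands of the EGF family, which EGFR and its relatives bind, were expressed for 6 of 11 genes (54.5%, against 46.3% of all genes listed). EREG (epiregulin) had 112, 96.1 and 125 CPM, TGFA 98.1, 82.4 and 92.4, HBEGF 57.6, 54.6 and 57.3 and NRG1, a ligand of ERBB3 and ERBB4, 55.5, 55.5 and 59.0. AREG (amphiregulin) and EGF itself had 7.63 ± 1.29 and 4.91 ± 0.809 CPM. BTC and EPGN had 0.369 and 0.375, and NRG3 and NRG4 had no count. All 4 members with a mean of at least 10 CPM had their lowest value in replicate 2. For NRG1 that value was close to the one in replicate 1.

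Among the ligands of the FGF, VEGF, PDGF, HGF and IGF families and some others, 16 of 29 were expressed (55.2%, against 46.3%). Per kilobase GAS6 (118 ± 8.70) stood above VEGFC (49.2 ± 0.703) by a ratio of 2.40 ± 0.206. The vascular factors VEGFA, VEGFB and VEGFC had 118, 119 and 111 CPM for VEGFA, 59.4, 60.8 and 48.6 CPM for VEGFB and 100.5, 103 and 101 CPM for VEGFC. PDGFC had 116, 115 and 134 CPM and PDGFA 9.87, 9.71 and 6.97, while PDGFB had 0.275. FGF5, known as a regulator of hair growth, had 53.3, 58.5 and 74.4 CPM and FGF1 had 8.08 ± 0.807 CPM. FGF2 had no count. Its gene shares 9.40% of its exon bases with NUDT6, which had 111, 147 and 149 counts. HGF, the ligand of MET, had no count, and neither had IGF1, IGF2 and ANGPT2. The neurotrophin BDNF had 39.8 ± 2.55 CPM.

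TGF-beta family ligands and their binders were expressed for 14 of 23 (60.9%, against 46.3% of all genes listed). TGFB2 and TGFB1 had 129, 121 and 133 CPM for TGFB2 and 73.4, 68.2 and 60.3 CPM for TGFB1, and TGFB3 had 2.09 ± 0.278. BMP4 had 133, 116 and 130.3 CPM, against 4.63 ± 0.167 for BMP2. FST, follistatin, which binds activin, had 149.9, 153 and 167 CPM, and FSTL1 had 202 ± 7.45. INHBB, an activin chain, varied from 40.3 to 66.7 CPM, whereas the other chain INHBA had 1.40 ± 0.367. GREM1, NODAL and BMP5 had no count.

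Of 33 cytokines and chemokines 13 were expressed (39.4%, against 46.3% of all genes listed). No count was seen for 8, and for 32.1% of all genes listed. Members with a mean of at least 10 CPM were CSF1, the growth factor of macrophages (237, 215 and 259.8 CPM), IL18 (129, 109.6 and 123), MIF (100.3, 94.0 and 65.3), LIF (73.9, 77.0 and 74.7) and IL11 (50.4, 49.7 and 34.0). LIF and IL11 signal through gp130, as IL6 does, which had 0.873, 1.82 and 1.66 CPM. The neutrophil attractant CXCL8 had 2.82, 4.17 and 4.43 CPM, and CXCL1, CXCL2 and CXCL3 had 0.370, 1.25 and 0.414. IL1B and IL1A had 0.473 and 0.315 CPM. TNF, CXCL5, CXCL6, CXCL10, CXCL12, CXCL14, CCL20 and TSLP had no count. MIF shares 55.1% of its exon bases with an antisense gene, and the library kit does not mark strand, so reads of the 2 cannot be told apart there.

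Among other secreted regulators 14 of 20 were expressed (70%, against 46.3% of all genes listed). CYR61, a matricellular CCN protein, had 995, 985 and 1004 CPM, and DKK1, an inhibitor of Wnt signalling, had 819, 692 and 758. CYR61 stood above its relative CTGF, which had 154, 175 and 181 CPM, by a ratio of 6.004 ± 0.526 per kilobase. ANKRD1, CYR61 and CTGF are all known as targets of YAP and TAZ. JAG1, a Notch ligand, had 272, 266 and 297 CPM and WNT7B 55.4 ± 4.70. PTHLH, known for its part in bone metastasis, had 0.598 CPM and SPP1, osteopontin, 0.103.

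Glycolysis splits glucose into pyruvate, and lactate dehydrogenase turns that into lactate. The 17 core enzyme genes of the pathway were expressed without exception and together took 2.22, 2.04 and 2.11% of the gene counts. In the whole list with transporters and regulators 28 of 37 were expressed (75.7%, against 46.3% of all genes listed). Of the 28, 17 had a mean of 100 CPM or more, as had 2498 of all 26364 genes listed. Per kilobase GAPDH (2690.2 ± 167) stood above ENO1 (1649 ± 86.5) by a ratio of 1.63 ± 0.0344, and ENO1 above PKM (855 ± 42.2) by a ratio of 1.93 ± 0.0191. TPI1, PGAM1, ALDOA and LDHB overlapped as neighbours between 454 and 496 per kilobase. PKM and LDHA swapped places when coding length replaced exon length (ratio 1.17 against 0.8498).

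At several steps 1 isoform gene stood above its relatives. SLC2A1, the glucose transporter GLUT1, had 503, 471 and 491 CPM and stood above SLC2A3 (28.8 ± 2.75 CPM) by a ratio of 16.8 ± 1.60 per kilobase. Hexokinase came from HK1 (442, 394 and 388 CPM) and HK2 (196, 185 and 211 CPM), with HK1 above by a ratio of 2.64 ± 0.277, and HK3 had no count. Platelet-type PFKP had 453, 413 and 403 CPM and stood above muscle-type PFKM by a ratio of 5.30 ± 0.0997. ALDOA had 1109 ± 64.2 CPM, against 12.1 ± 2.29 for ALDOC. The neuronal enolase ENO2 had 286, 266 and 250.2 CPM, and ENO1 stood above it by a ratio of 19.5 ± 1.27. LDHA had 2221, 2035 and 2263 CPM, and LDHB 729, 724 and 709, with LDHA above by a ratio of 1.61 ± 0.103 (2.57 by coding length and 3.02 without a length). For the export of lactate SLC16A3 (MCT4) had 332, 322 and 279.5 CPM, whereas SLC16A1 (MCT1) had 7, 15 and 3 counts, or 0.538 CPM. PDK2 and PDK1, which switch off pyruvate dehydrogenase, had 32.5 ± 3.30 and 26.9 ± 2.45 CPM.

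**Figure D3:**
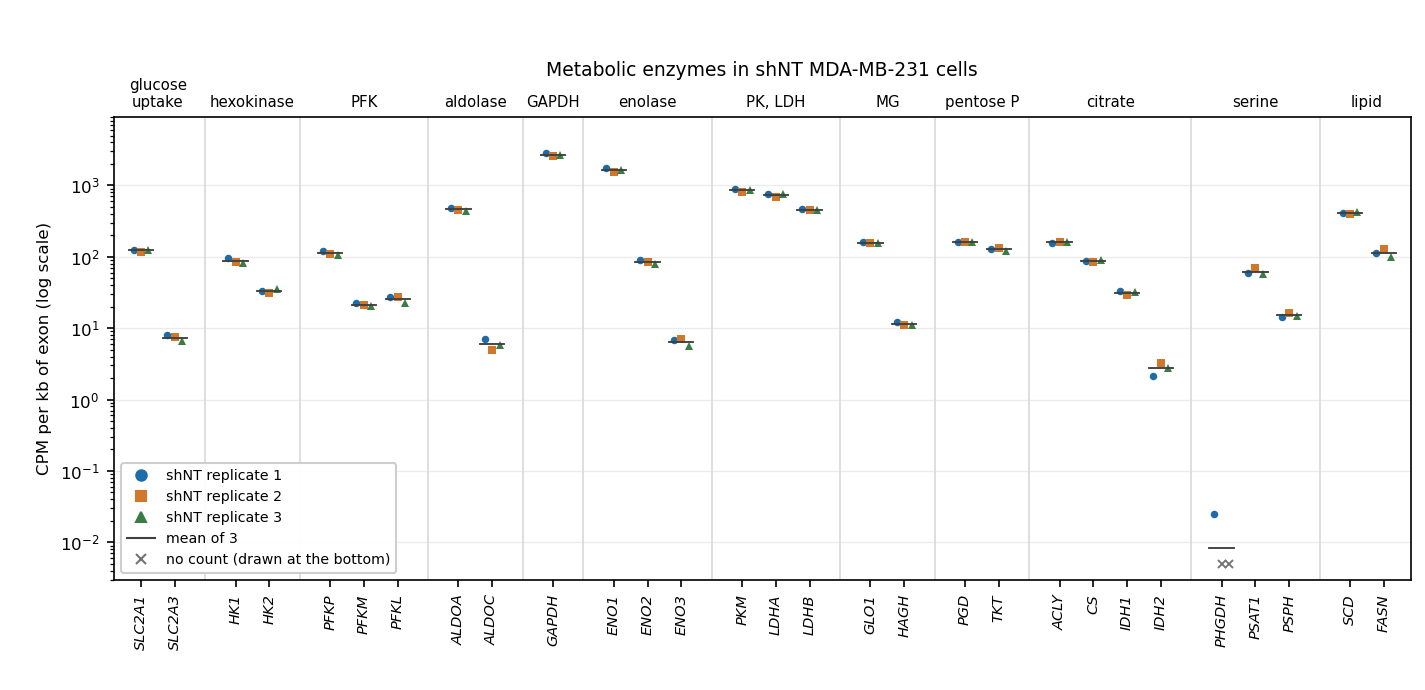
CPM per kilobase of merged exon on a log axis for metabolic enzymes in the 3 shNT libraries, grouped by step, with 1 symbol per replicate, bars at the mean and crosses for libraries without a count. ENO1 lies above ENO2 and SLC2A1 above SLC2A3 by at least 15.7 times in every library, and PHGDH has 1 count in all.

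MG arises as a by-product of glycolysis and is cleared by GLO1 and HAGH in turn. In the list of MG-handling genes 11 of 15 were expressed (73.3%, against 46.3% of all genes listed). GLO1 stood above HAGH (38.8, 35.1 and 34.8 CPM) by a ratio of 13.7 ± 0.627 per kilobase (15.7 by coding length and 8.77 without a length). The aldose reductase AKR1B1 had 209, 184 and 203 CPM and PARK7, a protein to which deglycase activity has been ascribed, had 186, 184 and 187. ALDH9A1 had 132 ± 2.78 CPM and AKR1A1 51.6 ± 0.416. AKR1C3 and AKR1C1 were uneven, with 1.54, 5.54 and 5.20 CPM for AKR1C3 and 0.537, 1.69 and 1.72 CPM for AKR1C1, lowest in replicate 1 for both. The median CV of the 8 members with at least 10 CPM was 2.66%, against 6.10% for all 9482 such genes. The CV differed with level, and 4 of the 8 averaged 100 CPM or more. Over all genes the median CV was 6.73% from 10 to 100 CPM and 4.70% from 100 to 1000 CPM.

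The pentose phosphate pathway, a source of NADPH and ribose, was expressed for 7 of 8 genes (87.5%, against 46.3% of all genes listed). TKTL1 had no count. TKT had 396, 400.3 and 365 CPM, PGD 305, 299 and 303 and TALDO1 167, 161 and 148. In the list of the citric acid cycle and of malate and citrate enzymes 31 of 32 were expressed (96.9%, against 46.3%). ACLY, which cuts citrate into acetyl-CoA for lipids, had 687, 709 and 695 CPM and stood above citrate synthase, CS (273, 269 and 284 CPM), by a ratio of 1.82 ± 0.0685 per kilobase (1.07 by coding length and 2.53 without a length). Of the 31, 17 averaged 100 CPM or more and none reached 1000 CPM, against 2498 and 80 of all 26364 genes listed. IDH2, the mitochondrial NADP-dependent isocitrate dehydrogenase, had 6.04, 9.12 and 7.86 CPM, beside 91.5, 80.6 and 89.8 for its cytosolic relative IDH1.

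Amino acid, folate and nucleotide enzymes were expressed for 28 of 31 genes (90.3%, against 46.3% of all genes listed). PHGDH, the first enzyme of serine synthesis, had 1, 0 and 0 counts in the 3 libraries, whereas the next enzymes PSAT1 and PSPH had 129, 151 and 127 CPM for PSAT1 and 31.5, 36.04 and 32.8 CPM for PSPH. SHMT2, the mitochondrial serine hydroxymethyltransferase, had 327, 340.3 and 296 CPM and SHMT1 40.1 ± 2.68. The amino acid carriers SLC38A2, SLC7A5, SLC1A5 and SLC3A2 had 727 ± 64.6, 409 ± 13.3, 313 ± 15.2 and 262 ± 7.95 CPM. ASS1, which makes argininosuccinate on the way to arginine, stood just above the limit with 1.007, 1.499 and 1.051 CPM. RRM2 and TYMS, which make building blocks of DNA, were lowest in replicate 1 and highest in replicate 3, with 203, 245 and 274 CPM for RRM2 and 233, 266 and 275 CPM for TYMS. TYMS shares 64.6% of its exon bases with the genes ENOSF1 and TYMSOS.

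Of 28 genes for glutathione and redox control 27 were expressed (96.4%, against 46.3% of all genes listed), and GPX2 had no count. TXNRD1, thioredoxin reductase, had 794, 735 and 812 CPM. The peroxiredoxins PRDX3, PRDX1 and PRDX6 had 429.6 ± 18.0, 402 ± 10.2 and 284 ± 3.86 CPM. SLC7A11, which imports cystine, had 141, 145 and 186 CPM. GPX1 and GPX4, glutathione peroxidases with a selenocysteine, had 216, 219 and 152 CPM for GPX1 and 253, 232 and 193 CPM for GPX4, the lowest in replicate 3 for both. HMOX1 had 12.8 ± 1.25 CPM. Lipid genes were expressed for 23 of 24 (95.8%, against 46.3%). SCD, which puts a double bond into fatty acids, had 2216, 2104 and 2289 CPM and stood above the synthase FASN (978, 1086 and 848 CPM) by a ratio of 3.68 ± 0.610 per kilobase (16.1 by coding length and 2.30 without a length). HMGCS1, of cholesterol synthesis, had 172, 221 and 252 CPM, lowest in replicate 1. CPT1A, which admits fatty acids to mitochondria, had 141 ± 7.50 CPM.

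Collagens had the smallest share of expressed genes among the matrix lists. Of 41 genes 19 were expressed (46.3%, the share of all genes listed), 7 had no count, and 4 averaged 100 CPM or more. Of all 26364 genes listed 8470 had no count and 2498 averaged 100 CPM or more. COL13A1, a transmembrane collagen, had 168, 161 and 159 CPM. COL8A1, a short-chain network collagen, had 239.6, 215 and 198, COL12A1 166, 167 and 176 and COL4A2 176, 167 and 151. Per kilobase COL13A1 stood above COL8A1, and the order turned round by coding length (ratio 1.32 against 0.749). COL4A2 stood above COL4A1, its partner in basement membranes that shares its promoter region, by a ratio of 1.71 ± 0.130 (2.85 by coding length and 2.95 without a length). Among fibrillar collagens COL1A1 had 14.0, 8.67 and 8.80 CPM and COL5A1 65.4, 80.9 and 67.5, but COL1A2 and COL3A1 had 2, 5 and 2 counts for COL1A2 and 1, 3 and 0 counts for COL3A1. The beaded-filament collagen VI genes COL6A1 and COL6A3 had 4.70, 11.01 and 8.74 CPM for COL6A1 and 2.75, 5.21 and 4.43 CPM for COL6A3, and COL6A2 had 0.305. COL4A3 and COL4A4 had 17.7, 9.45 and 10.96 CPM for COL4A3 and 46.9, 34.8 and 35.1 CPM for COL4A4, with the highest value in replicate 1 for both.

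Laminins, the networks of basement membranes, were expressed for 9 of 14 genes with nidogens (64.3%, against 46.3% of all genes listed). LAMC1 had 366, 375 and 370.0 CPM, LAMB1 228, 229 and 230.5 and LAMB2 378, 349 and 316. LAMA5, an alpha chain of basement membranes, ran from 291 to 428 CPM, and LAMA3 had 148 ± 13.3. Per kilobase LAMB2 (60.4 ± 5.35), LAMB3 (51.8 ± 3.99) and LAMC1 (46.9 ± 0.546) overlapped as neighbours. NID1 and NID2, which tie laminin to collagen IV, had 0, 0 and 1 counts for NID1 and 8, 10 and 9 counts for NID2.

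Matrix glycoproteins were expressed for 20 of 35 genes (57.1%, against 46.3% of all genes listed). THBS1, thrombospondin, had 320.1, 379 and 475 CPM, with a CV of 20.02%. LTBP1, which stores latent TGF-beta, had 254, 221 and 264 CPM. TNC, tenascin C, was the least steady of the expressed ones, with 3.56, 15.5 and 9.57 CPM. THBS2, ELN, COMP and SPARCL1 had no count. Proteoglycan and hyaluronan genes were expressed for 16 of 26 (61.5%, against the same 46.3%). AGRN had 443, 434 and 327 CPM, HSPG2 (perlecan) 295, 241 and 212 and SDC4 137, 142 and 149. VCAN, versican, had 1.16 CPM and failed the limit in 1 library. BGN, ACAN and GPC3 had no count.

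Enzymes that cut or cross-link the matrix, and their inhibitors, were expressed for 41 of 54 genes (75.9%, against 46.3% of all genes listed). CTSD, cathepsin D, led per kilobase of exon, with TIMP2 ahead of it by coding length, and had 1589, 1479 and 1322 CPM. It stood above P4HB, a subunit of collagen prolyl hydroxylase, by a ratio of 2.06 ± 0.181. Of the matrix metalloproteinases the membrane-bound MMP14 had 339.9, 328 and 321 CPM, and the secreted collagenase MMP1 had 15.8, 33.0 and 26.7. MMP2, the gelatinase that MMP14 activates, had 0, 1 and 3 counts, and MMP9, MMP7 and MMP12 had none. PLAU, urokinase, had 229.6, 243 and 235 CPM and its receptor PLAUR 55.8, 60.0 and 57.0. The tissue inhibitors TIMP2, TIMP3 and TIMP1 had 826, 795 and 821 CPM for TIMP2, 437, 458 and 498 CPM for TIMP3 and 95.03, 91.2 and 93.02 CPM for TIMP1, each above the next per kilobase. LOXL2, a cross-linker of collagen, had 251, 238 and 236 CPM, against 53.7, 54.5 and 49.2 for LOX.

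Integrins carry cells on the matrix, and 13 of 26 chains were expressed, a share close to the 46.3% of all genes listed. ITGB1, the common beta chain, had 1904, 1745 and 2012 CPM, and ITGA3, its partner for laminin, had 1618, 1558 and 1426. ITGB1 stood above ITGA3 by a ratio of 1.54 ± 0.192 per kilobase, and ITGA3 above ITGA6 by a ratio of 4.91 ± 0.501. The collagen-binding ITGA2 had 347, 349 and 377 CPM and the fibronectin-binding ITGA5 177, 189 and 168. ITGAV, ITGB5 and ITGB3 had 126 ± 14.1, 174 ± 21.99 and 12.0 ± 1.52 CPM. The leukocyte chains ITGAL and ITGAM had 0 and 0.0777 CPM, but their partner ITGB2 had 28.2, 18.8 and 20.8.

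**Figure D4:**
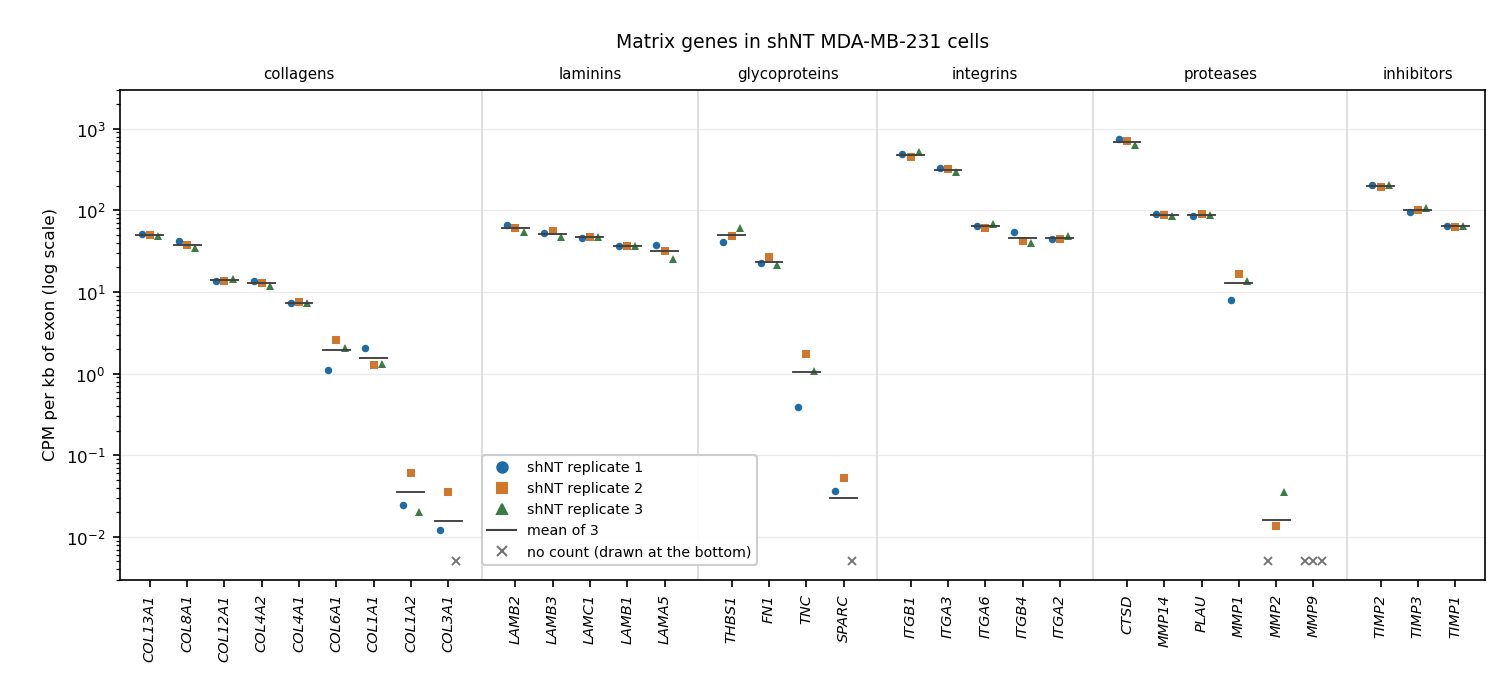
CPM per kilobase of merged exon on a log axis for matrix genes in the 3 shNT libraries, with 1 symbol per replicate, bars at the mean and crosses for libraries without a count. COL13A1 lies at a mean of 50.1 per kilobase, above COL8A1 by exon length though not by coding length, while COL1A2, COL3A1, SPARC and MMP2 lie under 0.1 and MMP9 has no count.

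Genes of RAS signalling and growth control were expressed for 30 of 33 (90.9%, against 46.3% of all genes listed). NRAS had 160.1, 167 and 178 CPM and HRAS 61.3 ± 6.46 CPM. BRAF had 11.01, 10.8 and 10.2 CPM. The MAP kinase phosphatases DUSP4, DUSP6 and DUSP5, which are known to be induced by ERK, had 481, 399 and 431 CPM for DUSP4, 427, 342 and 402 CPM for DUSP6 and 269, 243 and 211 CPM for DUSP5, and CCND1, cyclin D1, had 678, 617 and 690.4. RB1 had 109 ± 5.07 CPM. The cell cycle inhibitor genes CDKN2A and CDKN2B had no count.

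The absence of CDKN2A counts extended to its neighbours on chromosome 9. In the RefSeq order of the genes listed, 33 genes in a row lay between FOCAD (63, 73 and 61 counts) and TUSC1 (71, 86 and 80 counts). The row was followed on each side to the nearest expressed gene, so none of the 33 could be expressed. No count was seen for 30 of them, and 3 had counts. Among all genes listed that were not expressed, 8470 had no count and 5687 had counts. The 33 include the interferon alpha genes, which cells without a viral stimulus do not use, and KLHL9, MTAP and MIR31HG. MTAP, an enzyme of methionine salvage that most cells express, had 0, 2 and 4 counts, CDKN2B-AS1 had 11, 11 and 6 and MIR491 1, 2 and 1. These neighbours were looked up after the count of CDKN2A was seen. Whether the DNA of this stretch is present was not tested.

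Spread between the replicates was small for most genes. Among the 9482 genes with a mean of at least 10 CPM the median CV was 6.10% (quartiles 3.69 and 9.36%), and counting error alone would give a median of 3.51%. A CV of 20% or more was seen in 197 genes, or 2.08%. The widest was LCP1, the actin bundler L-plastin, with 26.4, 81.2 and 56.8 CPM and a CV of 50.1%, against 3.36% for counting error. Next came the secreted cystatin CST1 (5.04, 11.2 and 14.9 CPM) and PTK7. FAM133A, ID4, AQP3, CD82, CST4, LAPTM5, SORCS3, SNPH, JUNB, MMP1 and RASD1 were also among the 15 with the largest CV, at 34.6 to 41.7%. AQP3, a water and glycerol channel, had 23.4, 10.3 and 16.4 CPM. Of the 15, LCP1, CST1, PTK7, FAM133A, CD82, CST4, LAPTM5, SORCS3 and MMP1 had their lowest value in replicate 1, while ID4, AQP3, JUNB and RASD1 were highest there. Over all 197 genes with a CV of 20% or more the split was the other way, with 45 (22.8%) lowest and 112 (56.9%) highest in replicate 1, against 34.7% and 35.6% of the 9482 genes.

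At the other end TUBA1B, an alpha tubulin, had 2089, 2082 and 2085 CPM with a CV of 0.176%, and PVR, the poliovirus receptor CD155, had 293, 293 and 293 CPM with a CV of 0.0560%. SIL1, U2AF2, RBFOX2, ZC3H14, HDLBP, POLR2G, COQ9 and APPBP2 made up the rest of the 10 smallest, up to 0.231%. These CVs lay below the counting error of the same genes, which was 0.546% for TUBA1B and 1.46% for PVR, and 2079 of the 9482 genes (21.9%) had a CV below their counting error. With 3 values a small CV therefore marks no gene as constant.

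**Figure D5:**
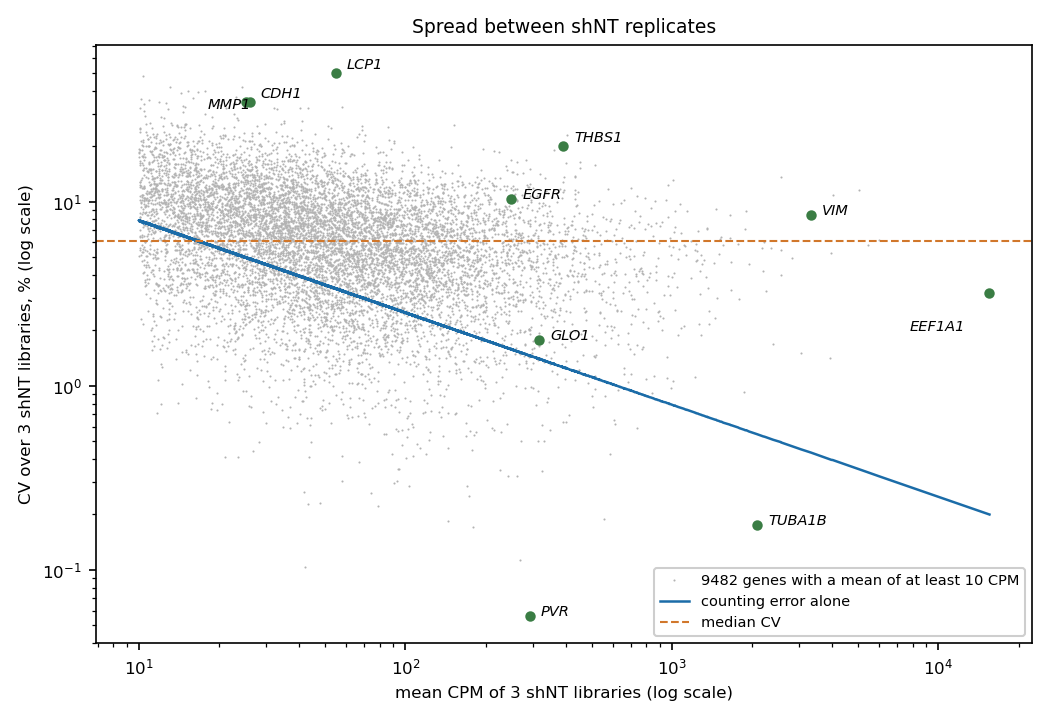
CV over the 3 shNT libraries against mean CPM for the 9482 genes with a mean of at least 10 CPM, both on log axes, with the counting error as a solid line, the median CV of 6.10% as a dashed line and named genes in green. LCP1 lies highest at a CV of 50.1% and PVR lowest at 0.056%, and points become fewer below the solid line.

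Members of some lists had their highest or lowest value in the same library. Of the 16 epithelial members with at least 10 CPM, 12 were highest in replicate 1, where 35.6% of all such genes had their highest value, and 9 were lowest in replicate 2 (29.5% of all genes). Of the 9 luminal members 7 were lowest in replicate 2. Among the 27 glycolysis members 18 were highest in replicate 1 and 1 was lowest there (34.7% of all genes). Under the other 4 scalings of the libraries the epithelial count stayed at 12, the luminal one was 6 or 7, and the glycolysis one lay between 17 and 20. The lists named here are only some of those counted, and others were uneven too. Of 30 citric acid cycle, malate and citrate members 17 were lowest in replicate 2. Of 6 EMT transcription factors 5 were lowest in replicate 3 (35.8% of all genes). Others were even, as the 26 glutathione and redox members, with 8, 9 and 9 lowest in replicates 1, 2 and 3. Members of a list share these libraries, so the counts describe the 3 libraries and no condition.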

How the data were processed

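RNA of MDA-MB-231 cells was sequenced in 9 libraries, 3 biological replicates each of shNT, shGLO1#1 and shGLO1#2 cells. The authors deposited 1 table of raw HTSeq counts per gene symbol for each library. Per the labels and the study's methods, unstranded TruSeq libraries were demultiplexed with bcl2fastq 2.17 and aligned to hg19 with TopHat2 2.1.1. Not given in the sources used here are the version, annotation and strand setting of HTSeq. Of all reads counted in shNT, 79.2 to 79.4% lay on genes, 12.8 to 13.3% on no feature, 1.60 to 1.95% were ambiguous and 5.76 to 5.85% not unique. These summary lines were left out.

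CPM were computed from gene counts and TMM factors over the 9 libraries (edgeR 4.0.16, filterByExpr, 13704 genes kept), which were 0.972, 0.986 and 0.977 in shNT. CV is SD over mean. Length is merged exons of GENCODE release 29 basic, which also gave exon overlaps, for 784 of 788 listed genes. Its build is not that of the files, so it gave lengths and overlaps only. Promoters came from RefSeq on GRCh38.p14, and 16165 of their genes matched by symbol. R 4.3.3, DESeq2 1.42.0 and Python 3.11.15 were used, and the estimate of the biological coefficient of variation was tested on simulated data.

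Genes named are the members of 36 lists, the 30 with the highest mean CPM and, from a mean of 10 CPM, the 15 largest and 10 smallest CVs. The libraries, lists and markers were chosen with earlier results of these data known. The 47 gene pairs compared per kilobase were chosen after their values were seen. So were NUDT6, which overlaps FGF2, and the genes beside CDKN2A with FOCAD and TUSC1 at the ends of their row. Alternatives were other scalings, filters, limits, lengths and leaving out each replicate. Some genes that the rule takes in are not reported here.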

Additional observations from a re-analysis of the deposited data

How the results depend on the processing

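No paired analysis was possible because only the shNT libraries were described and no value came from a test. The number of expressed genes, 12207, was 12184 without a scaling factor and with TMM over the 3 shNT libraries, 12225 with DESeq2 size factors, 12896 at 0.5 CPM, 10412 at 5 CPM, 12499 when 2 of 3 libraries sufficed, and 12291 to 12318 when a replicate was left out. The coefficient of variation of 7.37% was 7.40% without a filter, 7.07% from a mean of 10 CPM, and 6.33 to 8.64% when a replicate was left out. Raising the limit to 5 CPM changed 5 lists by the largest factor. Expressed members left were 1 for hormone receptors and HER2, 0 for endothelial markers and 2 for fibroblast and pericyte markers. Erythroid, liver, neural and melanocyte markers kept 1 and cytokines 7. Other lists lost members too, among them KDR and CSF1R of the receptor tyrosine kinases. At 0.5 CPM the endothelial list had 2. Mean levels moved by more than 1 SD in 50 of 833 genes without a factor and with TMM over the 3 libraries, and in 1 with DESeq2 size factors.

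The order of genes per kilobase depended on the length. By coding length 8 of 47 ratios turned round, KRT19 to KRT8 (0.547), ZEB1 to SNAI2 (0.984), VEGFC to VEGFB (0.964), VEGFB to VEGFA (0.914), HBEGF to TGFA (0.548), PKM to LDHA (0.8498), COL13A1 to COL8A1 (0.749) and SRGN to SDC4 (0.996). Without a length 10 did, EPHA2 to MET (0.997), KRT19 to KRT8 (0.403), VEGFB to VEGFA (0.484), HBEGF to TGFA (0.623), BMP4 to TGFB2 (0.989), IL18 to CSF1 (0.510), PGD to TKT (0.782), TXN to PRDX1 (0.752), COL13A1 to COL8A1 (0.752) and SRGN to SDC4 (0.795). Of the other ratios 34 changed by more than their SD by coding length and 34 without a length, and 5 and 3 did not, so the size of most ratios holds for exon length only. Leaving out a replicate could turn no ratio round, because only pairs that were separate in all 3 libraries were compared. Depth limits the lowest levels, since 1 count was 0.0553 to 0.0672 CPM.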
